A study of Glycine max with 13 samples.

Results

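ARF4 and ARF29 are a pair of auxin response factors (ARFs) of maize, and the data compared here are the places on soybean DNA at which each was called bound. All 19478 events of the ARF4 list and all 5395 events of the ARF29 list were taken, 24873 of the 177320 events in the 12 lists of the study. An event is the single base at which the authors placed a binding site. An event counted as shared when an event of the other list lay within 100 bp, and otherwise as ARF4 only or ARF29 only. The assay, DAP-seq (DNA affinity purification followed by sequencing), mixes a tagged protein made in vitro with sheared, naked DNA and sequences what the protein pulls down. The DNA came from soybean (Glycine max) leaf for every library, 12 of them with a maize ARF each and 1 with the GST-HALO tag alone, which was not analysed here. ARF4, ARF29 and every other ARF had 1 library each, so no difference between ARF4 and ARF29 could be set against a replicate error.

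ARFs bind DNA and turn the level of the plant hormone auxin into changes of transcription. They recognise short auxin response elements built on a TGTC core, and they bind as dimers that can contact a pair of such elements. ARF4 and ARF29 both belong to clade A of the published maize phylogeny, a clade of transcriptional activators that Aux/IAA repressor proteins hold back when auxin is low. Clade B ARFs are mostly known as repressors. The clades are background knowledge that the sample labels do not give. Naked DNA carries no nucleosomes and no maize partner proteins, so the assay reads what the purified protein binds by itself.

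The lists differed in length, ARF4 having 3.61 times as many events, and were close in the other values they give. Strength is the authors' value for each event, with no stated scale. It ran from 19 to 6652 in the ARF4 list (median 35) and from 19.1 to 7391 in the ARF29 list (median 31), and the lowest −log10 q was 5 and 5.01. The depth of either library is unknown, so an event missing from a list may only have been too weak to be called. Strengths were used as ranks within a list, given as percentiles, and were not compared between lists.

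Most ARF29 events lay at an ARF4 event, and most ARF4 events had no ARF29 event nearby. Of the ARF29 events, 4334 (80.3%, Wilson 95% interval 79.3% to 81.4%) were shared and 1061 were ARF29 only. Of the ARF4 events, 4418 (22.7%, 22.1% to 23.3%) were shared and 15060 were ARF4 only. As background, 33.1% of the 152447 events of the other 10 lists lay within 100 bp of an ARF4 event and 15.1% within 100 bp of an ARF29 event. The lists in this pool differed widely. Of the ARF18 events, 67.5% lay at both ARF4 and ARF29 and 19.9% at ARF4 without ARF29, together a larger share than that of ARF29. For ARF27 events these shares were 29.7% and 35.0%, and for ARF7 events 7.24% and 9.99%. The intervals cover counting error only. The Jaccard index of the pair, shared events over all events of both lists, was 0.213, which ranked 8 among the 15 pairs of clade A proteins. By the same index the closest clade A partner of ARF4 was ARF16 (0.315), and that of ARF29 was ARF27 (0.272). Unequal list lengths cap this index, and counts of shared events gave another order. More ARF29 events lay at an ARF4 event (4334) than at one of ARF34 (4044), ARF16 (3495) or ARF27 (3319). More ARF4 events lay at an ARF34 event (11859) than at one of ARF16 (8571).

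Nearly every shared event had a single partner. An ARF4 event had 1 ARF29 event within 100 bp in 4367 cases and 2 in 51. An ARF29 event had 1 ARF4 event in 4200 cases, 2 in 133 and 3 in 1. Pairs in which each event was the nearest of the other numbered 4307. Beyond the limit of 100 bp the lists soon parted: 90.8% of the ARF4 only events and 71.1% of the ARF29 only events were more than 5000 bp from the other list, at median distances of 57258 bp and 14032 bp. The limit itself cut through few events. It left 18 ARF4 events at 96 to 100 bp inside (median percentile 60.4) and 25 at 101 to 105 bp outside (37.9). Of the ARF29 events, 13 lay just inside (57.1) and 21 just outside (25.8).

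Shared events ranked higher than unshared events in both lists. The median percentile of strength was 74.5 for shared ARF4 events (95% interval of the median 72.9 to 76.0) and 43.5 for ARF4 only events, a difference of 31.002 percentile points. It was 54.2 for shared ARF29 events (53.1 to 57.1) and 30.9 for ARF29 only events (25.8 to 30.9), a difference of 23.4 points. The quartiles overlapped widely. Shared ARF4 events spanned the 46.9 to 90.2 percentiles between their quartiles, and ARF4 only events 20.9 to 67.2. Shared ARF29 events spanned 30.9 to 78.2, and ARF29 only events 14.7 to 57.1.

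The share of events at the other list rose along the ranks, steeply for ARF4 and to a plateau for ARF29. Each list was cut into 10 deciles by strength, from decile 1 (weakest) to decile 10 (strongest). In decile 1 of ARF4, 7.09% of the events were shared (Wilson 6.03% to 8.31%), in decile 8 27.4%, in decile 9 39.6% and in decile 10 58.0% (55.8% to 60.2%). In ARF29, decile 1 was shared to 61.6% (57.4% to 65.6%) and decile 8 to 91.3%. Its top deciles stayed there, with 92.4% in decile 9 and 91.7% in decile 10. At the very top the lists were alike: 88% of the 100 strongest ARF4 events and 90% of the 100 strongest ARF29 events were shared. With 1000 events these shares were 65.1% and 91.8%. With full lists, sharing thus fell at higher ranks in ARF4 than in ARF29, but ARF4 events were matched to the shorter list. With ARF4 shortened to its 5395 strongest events, the length of the ARF29 list, 43.1% of ARF4 and 43.2% of ARF29 events were shared. The gap in median percentile between shared and unshared events was then 21.001 points in ARF4 and 37.1 in ARF29. With full lists it was wider in ARF4 (31.002 against 23.4).

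**Figure D1:**
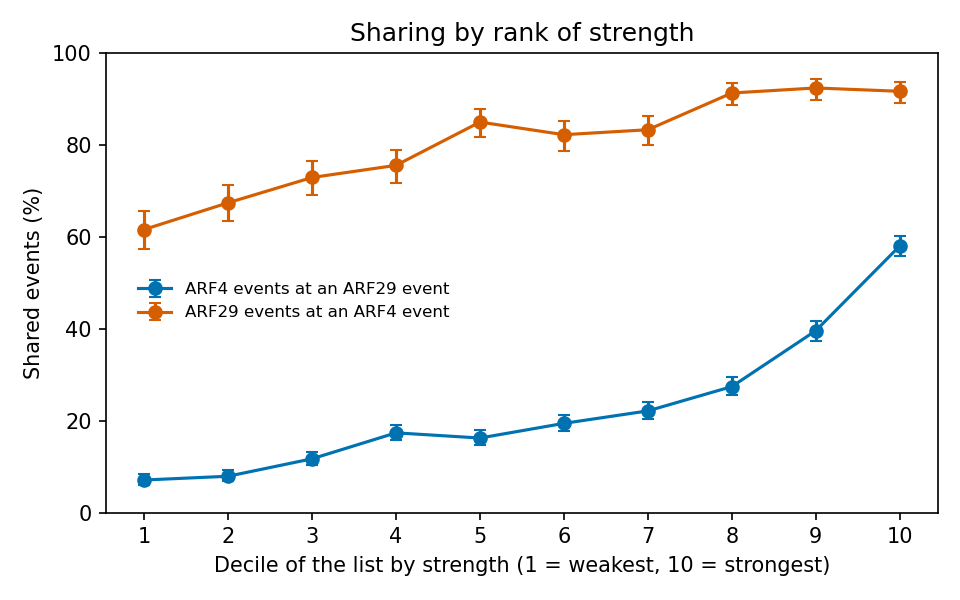
Share of events within 100 bp of the other list (y axis, %) in each decile of a list by strength (x axis, 1 weakest to 10 strongest), with Wilson 95% intervals. ARF4 climbs from 7.09% to 58.0%, and ARF29 from 61.6% to a plateau near 92.4%.

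Within the shared events the ranks went together loosely. Spearman's rho between the percentile of the ARF4 event and that of its nearest ARF29 event was 0.59 over the 4418 shared ARF4 events, which come from 1 library per protein and the same DNA. Of the shared pairs, 503 were above the 90th percentile in ARF29, and 388 of these were also above it in ARF4. Which protein ranked the pairs higher depended on the length of the lists. With full lists the ARF4 event had the higher percentile in 73.1% of the pairs, by a median of 10.5 points. With the 5395 strongest ARF4 events, a comparison added after the data were seen, it did so in 37.3% of 2324 pairs, with a median difference of -6.26 points. At that equal length, 59 of 485 pairs above the 90th percentile in ARF29 were below the 50th in ARF4, and 33 of 383 pairs above the 90th in ARF4 were below the 50th in ARF29. With full lists these counts were 5 of 503 and 172 of 1128, the opposite order.

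The 5 strongest shared pairs lay at events of 5 to 10 of the other 10 lists. Positions follow the chromosome numbering of the deposited lists; their build is unnamed in the sources used here, and nearby genes were not analysed. The leading pair, on chromosome 12, had its ARF4 event at 40628948 with a strength of 6652 and its ARF29 event 19 bp to the right with 7391, the highest of each list. It also held an event of 9 of the other 10 lists, all but ARF18. On chromosome 20 the ARF4 event at 32738791 (strength 3586) and the ARF29 event (3421) lay 1 bp apart and 7 other lists had an event. On chromosome 7, at 24234642, strengths were 6322 and 3240, the events lay 5 bp apart and 9 other lists had an event. On chromosome 5, at 36748734, strengths were 2143 and 2290 and all 10 other lists had an event. On chromosome 15, at 49411244, strengths were 1453 and 1426 and the events lay exactly 4 bp apart. That site was held by all 4 other clade A proteins (ARF16, ARF18, ARF27 and ARF34) and by ARF14 of clade B alone.

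Some shared pairs were strong for ARF4 and at the foot of the ARF29 list. The widest gap was on chromosome 4 at 29471278, where the ARF4 event was at the 97.9 percentile and the ARF29 event, 60 bp away, at 1.52. The next were on chromosome 14 at 22043822 (97.8 against 1.95, 68 bp apart) and on chromosome 4 at 7015767 (96.6 against 1.28, 4 bp apart). In the other direction, the ARF29 event was at the 86.1 percentile and the ARF4 event at 7.04 on chromosome 8 at 9041856. The next were on chromosome 8 at 20085736 (83.3 for ARF29 and 9.30 for ARF4) and on chromosome 17 at 34065588 (89.0 and 17.01). The distances there were 33, 78 and 100 bp, so the last pair sat on the limit for sharing.

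Shared events did not coincide at the base: their most frequent distance was exactly 4 bp. Of the 4418 shared ARF4 events, 1107 (25.1%, Wilson 23.8% to 26.4%) had the ARF29 event 4 bp away, and 74 (1.67%) had it at the same base. Every other distance from 1 to 30 bp held between 27 and 147 events. The 4 bp events were split evenly, with 551 ARF29 events to the right of the ARF4 event and 556 to the left, and so were shared events of all distances (2197 right, 2147 left, median signed distance 0). The lists give no strand. The median absolute distance was 10 bp, with quartiles of 4 and 27 bp, and 50.4% of the pairs lay within 10 bp and 88.6% within 50 bp. A smaller rise stood at 60 bp, with 49 events against 29 at 59 bp and 16 at 61 bp.

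**Figure D2:**
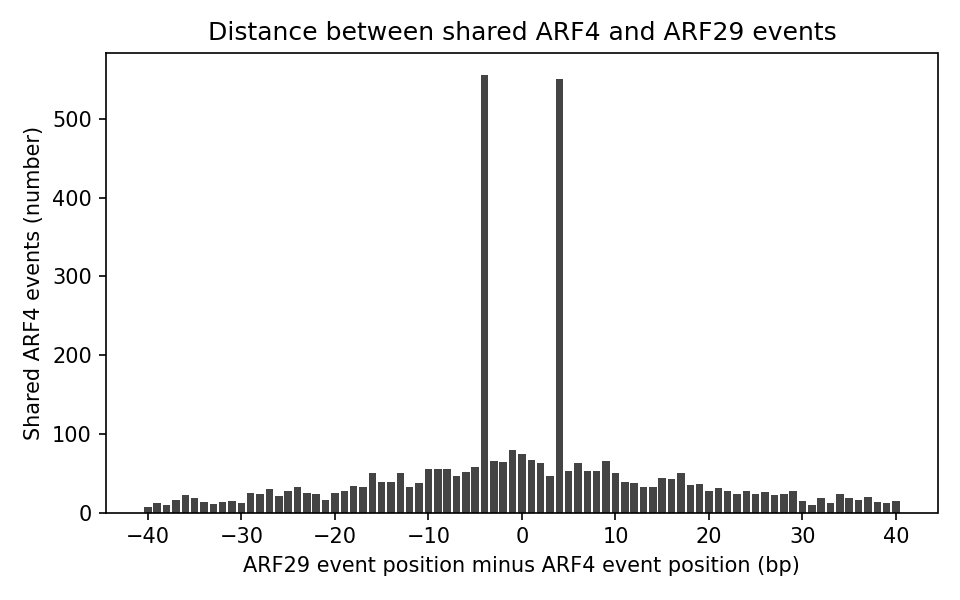
Number of shared ARF4 events (y axis) by the position of the nearest ARF29 event minus that of the ARF4 event (x axis, bp, shown from -40 to 40). Bars at -4 (556 events) and 4 bp (551) stand over all others, and the bar at 0 holds 74.

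The 4 bp spacing was found at all ranks. It made up 21.9% of the shared events in decile 10 of ARF4 and 31.8% in decile 2, the lowest and the highest share of any decile. Pairs 4 bp apart had a median percentile of 73.5 in ARF4 and 52.2 in ARF29, close to the 75.3 and 55.4 of all other shared pairs. Pairs 0 to 3 bp apart ranked higher, at 83.8 and 74.3, and were held by a median of 6 of the other 10 lists. Pairs exactly 4 bp apart were held by a median of 3 other lists, 3 of clade A and 0 of clade B. A clade B list had an event at 48.3% of them, against 61.3% of the shared pairs at other distances and 72.4% of those 0 to 3 bp apart.

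The other lists had most frequent distances too, given first for clade A. The most frequent distance to an ARF4 event was 0 bp for ARF16 (31.3% of 8571 shared ARF4 events) and ARF18 (28.0%), 1 bp for ARF34 (28.8%) and 2 bp for ARF27 (29.5%). The most frequent distance to an ARF29 event was 4 bp for ARF16 (41.1% of 3495 shared ARF29 events) and ARF18 (40.7%), 3 bp for ARF34 (26.0%) and 6 bp for ARF27 (30.6%). At the pairs 4 bp apart, measured from the ARF4 event toward the ARF29 event, the most frequent position was 0 bp for ARF16 and ARF18, 1 bp for ARF34 and -2 bp for ARF27. ARF4 thus shared its usual base with ARF16 and ARF18, while the usual base of ARF29 was 4 bp from theirs. ARF27 lay on the far side of ARF4, and ARF34 between ARF4 and ARF29. Clade B lists also had a most frequent position at these pairs. It was 1 bp for ARF10, 3 bp for ARF7, ARF14 and ARF36, and 6 bp for ARF25 and ARF39. That position held 14.8% (ARF14) to 26.6% (ARF25) of the pairs with an event of the list. In clade A the range was 51.5% (ARF34) to 70.3% (ARF18). GEM, the event caller named in the titles of the lists, joins read positions with enriched short sequence words when it places events; whether such words set these distances was not tested.

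Clade B events kept a sharper distance to ARF29 than to ARF4. The most frequent distance to ARF29 was 1 bp for ARF7, ARF14 and ARF36, 2 bp for ARF25 and ARF39 and 3 bp for ARF10, and held 12.0% (ARF7) to 29.5% (ARF39) of the shared ARF29 events. The most frequent distance to ARF4 ran from 2 bp (ARF10) to 6 bp (ARF25 and ARF39) and held 5.47% (ARF14) to 10.9% (ARF25) of the shared ARF4 events. The contrast was also there on the same clade B events, those with an event of both ARF4 and ARF29 within 100 bp. Of 1047 such ARF39 events, 29.4% lay at the usual distance to ARF29 and 8.79% at that to ARF4. Of 1347 such ARF14 events these shares were 26.9% and 6.38%, of 1748 ARF10 events 27.3% and 7.21%, and of 1843 ARF36 events 21.9% and 7.05%. ARF25 (17.1% and 11.4%) and ARF7 (11.3% and 8.43%) showed the smallest gaps of the 6. The share was higher for ARF29 in 6 of 6 clade B lists. In clade A it was higher for ARF29 in ARF16 (39.1% and 26.3%), ARF18 (41.8% and 27.8%) and ARF27 (30.04% and 27.05%), and nearly equal in ARF34 (24.4% and 24.6%). Restricting ARF4 to its 5395 strongest events left its shares with clade B lists at 6.48% (ARF14) to 10.9% (ARF25). The other clade A lists varied in this too. Their most frequent distance to a clade B list held 8.24% (ARF7) to 23.5% (ARF14) of the shared ARF18 events. For ARF16 it held 10.3% (ARF7) to 19.4% (ARF39), for ARF27 9.72% (ARF10) to 12.7% (ARF39) and for ARF34 4.79% (ARF14) to 13.9% (ARF25). These distances were read from the same data as the shares, so no test was made.

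**Figure D3:**
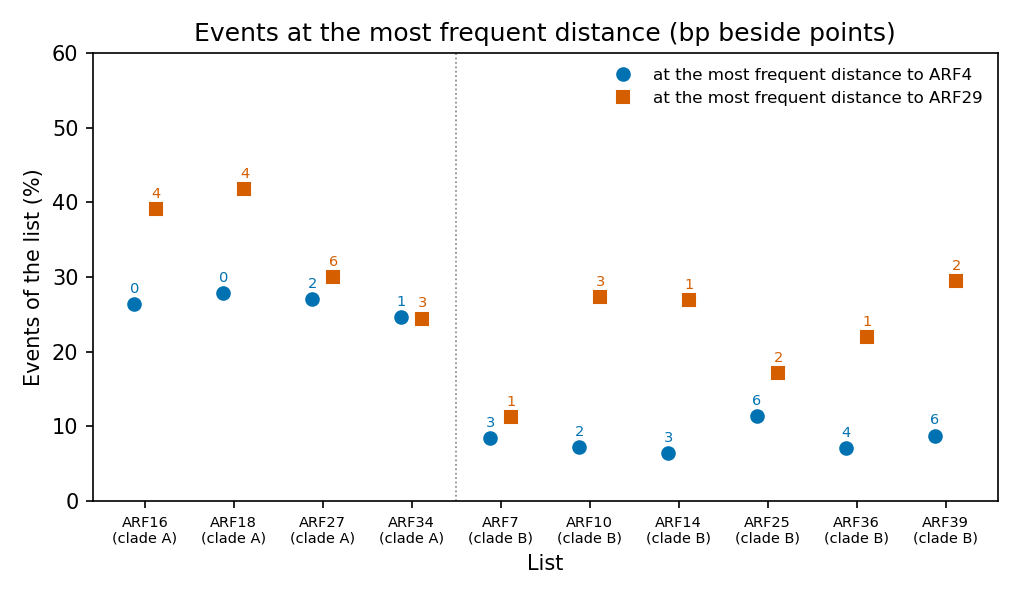
Share of the events of each other list (y axis, %), among those with both an ARF4 and an ARF29 event within 100 bp, that lie at that list's most frequent distance to ARF4 (circles) or to ARF29 (squares). The number beside each point is that distance in bp. In the 6 clade B lists the ARF29 points (11.3% to 29.4%) lie above the ARF4 points (6.38% to 11.4%).

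Shared events were widely held by the rest of the family, and events of only ARF4 or only ARF29 much less. Any of the other 10 lists had an event at 93.6% of the shared ARF4 events (Wilson 92.8% to 94.3%), 69.2% of the ARF4 only events (68.4% to 69.9%) and 72.9% of the ARF29 only events (70.1% to 75.4%). As background, the share was 74.7% over all ARF4 events and 89.4% over all ARF29 events. The median number of other lists was 4 for shared, 1 for ARF4 only and 2 for ARF29 only events. All 10 other lists had an event at 245 shared events, 12 ARF4 only events and 1 ARF29 only event. No other list had one at 284 shared events (6.43%), 4646 ARF4 only events (30.8%) and 288 ARF29 only events (27.1%). The unheld events were weak, with a median percentile of 29.4 in ARF4 only and 20.1 in ARF29 only, against 50.1 and 33.7 for the held ones. The gap narrowed with rank. In deciles 1 to 5 of ARF4, another list held 86.6% of 1174 shared and 60.7% of 8565 ARF4 only events, and in deciles 6 to 10 96.1% of 3244 and 80.2% of 6495. In decile 10 alone it held 99.0% of 1130 shared events (98.3% to 99.5%) and 95.2% of 818 ARF4 only events (93.5% to 96.5%). With ARF4 cut to its 5395 strongest events the order of the unshared classes turned, with 86.7% of the ARF4 only and 82.9% of the ARF29 only events held.

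Each of the 10 other lists held a larger share of the shared events than of either unshared class. ARF34, which has the longest list, held 82.3% of the shared, 54.6% of the ARF4 only and 47.2% of the ARF29 only events. ARF16 held 73.0%, 35.5% and 34.0% in that order. ARF27 held 69.4%, 23.9% and 30.2%. ARF18, the shortest list, held 17.5%, 1.49% and 2.83%. In clade B, ARF25 held 46.4% of the shared, 16.99% of the ARF4 only and 25.7% of the ARF29 only events. ARF39 held 23.7%, 4.09% and 12.8%. ARF14 held 30.2%, 8.51% and 17.5%. ARF36 held 40.8%, 18.2% and 23.1%, ARF7 34.0%, 13.4% and 18.8%, and ARF10 40.4%, 17.2% and 14.6%. The events of the other lists were also stronger there: in 10 of 10 lists the median percentile of a list's own events was higher at positions with both ARF4 and ARF29 than at positions with only 1 of them. In ARF34 it was 77.9 with both, 58.1 with ARF4 alone, 53.4 with ARF29 alone and 43.0 with neither, and in ARF39 it was 68.8, 49.5, 58.4 and 43.6.

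**Figure D4:**
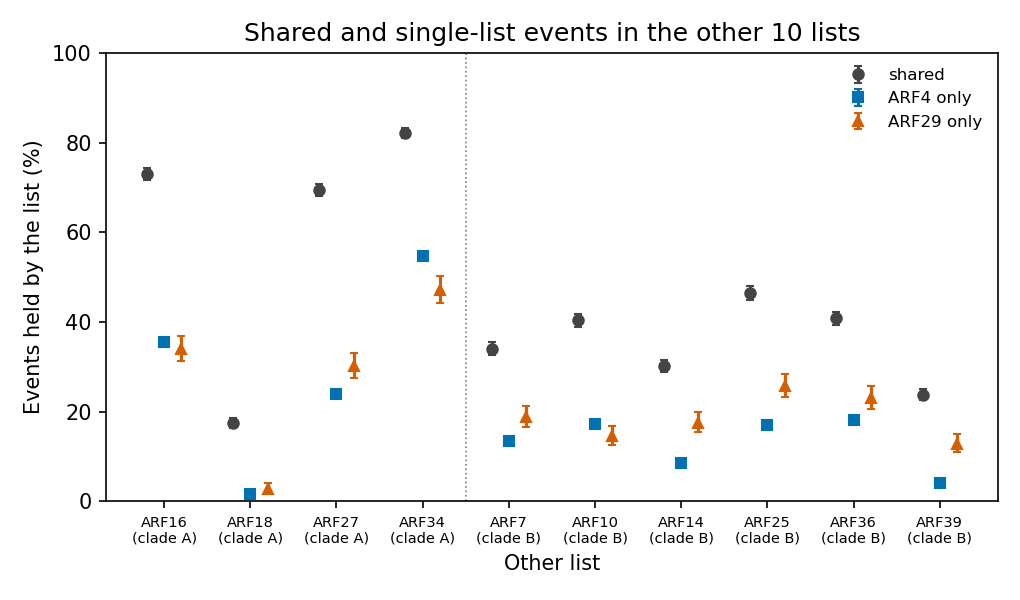
Share of the shared ARF4 events (circles), ARF4 only events (squares) and ARF29 only events (triangles) that each of the other 10 lists holds within 100 bp (y axis, %), with Wilson 95% intervals. Circles are highest in all 10 lists, from 17.5% in ARF18 to 82.3% in ARF34.

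ARF29 only events were held more often than ARF4 only events by 5 of 6 clade B lists, ARF10 being the exception, and by 2 of 4 clade A lists. With the 5395 strongest ARF4 events this held for 5 of 6 clade B lists and for 1 of 4 clade A lists, ARF27. The log2 ratio of the ARF4 only share to the ARF29 only share ranged from -1.65 for ARF39 and -1.04 for ARF14 to 0.24 for ARF10 in clade B. In clade A it was -0.92 for ARF18, -0.34 for ARF27, 0.06 for ARF16 and 0.21 for ARF34. Its mean was -0.25 ± 0.51 (SD, n = 4 lists) in clade A and -0.65 ± 0.64 (SD, n = 6 lists) in clade B, a difference within the spread between lists (exact permutation test, two-sided, 210 splits of the lists: p = 0.33, or 0.33 when adjusted for 4 tests by Benjamini-Hochberg). The short lists ARF18, ARF39 and ARF14 had the lowest ratios. With each of the 10 lists cut to its 1106 strongest events the clade difference in the ratio was 0.32 on the log2 scale, against 0.40 with full lists (adjusted exact permutation p = 0.75). With the 5395 strongest ARF4 events it was 0.69, with a clade A mean of 0.17 ± 0.25 and a clade B mean of -0.52 ± 0.57 (SD, n = 4 and 6; exact permutation p = 0.057, adjusted 0.095), so the clade A mean changed sign.

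In the mean share held, the clades did not differ past the threshold in any of the 3 classes with full lists, whose lengths differ widely. Shared events were held to 60.5% ± 29.2 (SD, n = 4) by clade A lists and 35.9% ± 8.2 (SD, n = 6) by clade B lists (two-sided exact permutation p = 0.086, adjusted 0.23). ARF4 only events were held to 28.9% ± 22.2 and 13.1% ± 5.7 in the same order (exact permutation p = 0.11, adjusted 0.23). ARF29 only events were held to 28.6% ± 18.6 and 18.8% ± 4.9 (exact permutation p = 0.25, adjusted 0.33). The smallest p this design can give is 0.0048. Without ARF18, whose list holds 1106 events, all 3 differences passed: 39.0, 24.9 and 18.4 percentage points (adjusted exact permutation p = 0.016 for each). The unadjusted exact permutation p was 0.012 for each, the smallest that the 84 splits left can give. ARF18 had the lowest share of the clade A lists in all 3 classes. These p-values measure the spread between proteins, each with 1 library.

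By clade, ARF4 only events were most often at clade A lists alone. Of the ARF4 only events, 40.7% were held by other clade A lists and none of clade B, 9.16% by clade B lists alone and 19.2% by both. For ARF29 only events these shares were 35.9%, 13.6% (Wilson 11.6% to 15.8%) and 23.4%. Shared events were held by lists of both clades to 53.8% and by clade B alone to 4.30%. All 6 clade B lists held 721 shared events (16.3%), 418 ARF4 only events (2.78%) and 52 ARF29 only events (4.90%).

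The strongest events of only ARF4 or only ARF29 included sites that many other ARFs held. The strongest ARF4 only event, on chromosome 11 at 16084008, had a strength of 6444, the second highest of the list, and all 10 other lists had an event there. The nearest ARF29 event was 293246 bp away. The next, at 7239535 of chromosome 15 (strength 1085), was held by all 6 clade B lists and by ARF27 alone of clade A. The third, at 19636640 of chromosome 15 (911.4), had an ARF29 event 140 bp away and so fell just outside the limit. The others were at 23685715 of chromosome 17 (429.7), which only ARF34 shared, and at 41312704 of chromosome 8 (376), held by 6 lists. The strongest ARF4 event that no other list held was at 23509277 of chromosome 7 (113.1, percentile 98.8).

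The strongest ARF29 only event was on chromosome 15 at 28347810, with a strength of 2955, and was held by ARF16, ARF34 and ARF25. The next, at 33731196 of chromosome 14 (648.5), was held by ARF27 alone. Those at 23466773 of chromosome 13 (478) and 9330445 of chromosome 2 (325) were both held by ARF18 and by 4 clade B lists, ARF7, ARF14, ARF25 and ARF39. The last, at 13612537 of chromosome 11 (322.2), had an ARF4 event 178 bp away. The strongest ARF29 event that no other list held was at 44167193 of chromosome 10 (80.4, percentile 95.6).

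Both proteins had events on all 20 chromosomes at nearly constant proportions. ARF4 had 18.0 (chromosome 15) to 22.7 (chromosome 13) events per Mb of the span covered by events, and ARF29 had 4.96 (chromosome 1) to 6.92 (chromosome 13). The ratio of ARF4 to ARF29 events ran from 3.29 on chromosome 13 to 4.02 on chromosome 1. The shared part of the ARF4 events ran from 20.5% on chromosome 1 (Wilson 18.2% to 22.9%) to 26.0% on chromosome 13 (23.4% to 28.8%). The shared part of the ARF29 events ran from 75.5% on chromosome 6 (70.2% to 80.2%) to 83.9% on chromosome 10 (79.5% to 87.5%).

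Shared events lay farther toward the chromosome ends than ARF4 only events, and the interval of ARF29 only events touched that of both. Soybean chromosomes carry most genes in their arms and most repeats in a wide region around the centromere. The middle of a chromosome, from 25% to 75% of the stretch with events, held 39.2% of the shared ARF4 events (Wilson 37.8% to 40.7%), 45.8% of the ARF4 only events (45.0% to 46.6%) and 43.3% of the ARF29 only events (40.3% to 46.3%). The share was 46.2% over the events of the other 10 lists. The difference between ARF4 only and ARF29 only events, 2.56 percentage points, had an interval of -0.54 to 5.62 and was not resolved by these counts. Nor was it with sharing within 50 bp, at 1.51 points (-1.15 to 4.14). Some other settings gave intervals above 0, with ARF4 only events more often in the middle. The difference was 3.55 points (0.31 to 6.74) with sharing within 200 bp and 6.71 (2.25 to 11.03) with the more significant events of each list. It was 8.41 (5.93 to 10.9) with the 5395 strongest ARF4 events. Of the shared events, 39.8% of those in deciles 1 to 5 of ARF4 and 39.0% of those in deciles 6 to 10 lay there, and of the ARF4 only events 45.1% and 46.7%. The share varied more with which other lists held the event. Of the events held by other clade A lists alone, 43.1% of the shared, 50.05% of the ARF4 only and 50.7% of the ARF29 only events lay in the middle. Of those held by both clades, 36.9%, 41.6% and 34.3% did.

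**Figure D5:**
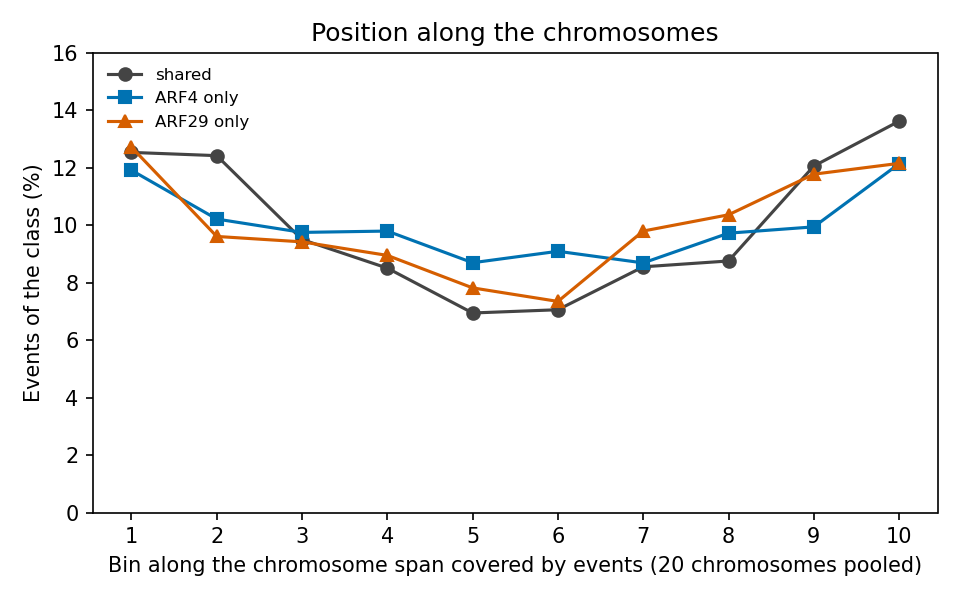
Share of the shared ARF4, ARF4 only and ARF29 only events (y axis, %) in 10 equal bins along the chromosome span covered by events (x axis, 20 chromosomes pooled). Shared events dip to 6.95% in bin 5 and reach 13.6% in bin 10, and ARF4 only events stay between 8.69% and 12.1%.

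Events of the same list within 500 bp of each other were more frequent in ARF4 than in ARF29. Such a neighbour was found for 15.5% of the shared ARF4 events (Wilson 14.5% to 16.6%) and 12.2% of the ARF4 only events (11.6% to 12.7%). It was found for 6.30% of the shared ARF29 events and 4.43% of the ARF29 only events (3.35% to 5.84%). A longer list has more neighbours by its length, so these shares are not comparable between the lists. Among consecutive ARF4 events at most 200 bp apart, 131 bp was the most frequent spacing, and 160 of 663 (24.1%) were 128 to 131 bp apart, a range picked out after the values were seen. In ARF29 it was 7 of 84 (8.33%), in ARF16, ARF27 and ARF34 15.1% to 18.8%, in ARF18 1 of 33 and in the 6 clade B lists 1.38% to 2.80%. These 160 ARF4 pairs were on all 20 chromosomes. In 109 of them both events were ARF4 only, in 34 only 1 event was, and in 17 both were shared. The 77.3% of all ARF4 events that were ARF4 only is a share of single events, not of pairs. In the middle of chromosomes lay 85% of the ARF4 pairs of this spacing, against 44.3% of all ARF4 events. The share was 83.3% for such pairs of ARF34, 87.8% for ARF16 and 94.5% for ARF27. The other lists had few such pairs. In ARF29 5 of 7 lay in the middle, and in ARF18 its 1 pair. In clade B, with 3 (ARF39) to 16 (ARF7) pairs per list, the share ran from 22.2% (ARF25) to 100% (ARF39). The middle share of close pairs at other spacings was not measured, so whether it goes with this spacing was not tested.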

How the data were processed

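Each of the 12 ARF samples had 1 deposited event list, made per sample as far as the files show. Trimmomatic 0.36 and Bowtie2 are the tools that the submitters' processing notes name, without their roles. The lists' titles name GEM; genome build, caller settings and filters are unstated in the sources used here. The deposited signal value of an event (its strength), with no stated scaling, was used to rank events. Values of −log10 p (deposited, not used) and −log10 q (deposited, used to filter events and break ties) were capped at 999. The deposited display score was not used. Event positions are the window start plus the offset plus 1, on the reading that starts count from 0. The event names in the lists give positions 1 bp lower. Windows were 201 bp.

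Groups came from the sample titles. Events of both lists were matched to the nearest event of the other list. For clade differences over the 10 other lists, exact permutation tests (two-sided) were run, with Benjamini-Hochberg adjustment over 4 tests. The code was tested on simulated lists. Members, limits and rules were chosen with earlier results of these data known. Named sites were the 5 strongest shared pairs by mean percentile, the 3 widest percentile gaps in each direction, the 5 strongest events of each unshared class and the strongest of each held by no other list. Alternatives were distances of 50 and 200 bp, lists of equal length, the more significant events of each list (median −log10 q or higher), one-to-one pairs and leaving out each other list; shortening the other 10 lists was added after seeing the data. No sequence is printed, since no genome of the files' build was used here. Software was Python 3.11.15 with scipy 1.17.1, numpy 2.4.6, matplotlib 3.10.9 and pandas 2.3.3.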

Additional observations from a re-analysis of the deposited data

How the results depend on the processing

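No difference fixed for testing or description changed sign under any setting, but with ARF4 cut to its strongest 5395 events several other orders did. Among them were which protein ranks shared pairs higher, in which list the percentile gap is wider, and which unshared class other lists hold more often. So was which list has more of its top pairs in the lower part of the other. The clade A mean log2 ratio (0.17, against -0.25) and the ARF18 ratio (0.20, against -0.92) changed sign. Within 50 bp, 20.1% of ARF4 and 72.5% of ARF29 events were shared at a median distance of 8 bp, and other lists held 64.0% of the ARF4 only events. Within 200 bp these values were 24.0%, 82.2%, 12 bp and 71.2%. The middle difference was 3.55 points (interval 0.31 to 6.74) within 200 bp and 1.51 points (interval -1.15 to 4.14) within 50 bp. With the 5395 strongest ARF4 events, 43.1% and 43.2% were shared at 9 bp, the gap in median percentile between shared and unshared events was 21.001 in ARF4 and 37.1 in ARF29, ARF4 only events lay in the middle of chromosomes more often than ARF29 only events by 8.41 percentage points (interval 5.93 to 10.9), and other lists held 86.7% and 82.9% of the unshared events. With the more significant events of each list (its median −log10 q or higher), the percentile gaps were 28.05 and 19.99, the distance 9 bp, the middle difference 6.71 points (interval 2.25 to 11.03) and the held shares 65.5% and 69.3%. One-to-one pairs gave 22.1% and 79.8%. With each other list cut to its 1106 strongest events, chosen after seeing the data, other lists held 7.54% of the ARF4 only and 10.4% of the ARF29 only events, and the clade difference at shared events was 6.65 points (adjusted exact permutation p = 0.019, against 0.23 with full lists). Leaving out each other list gave clade differences of 17.4 to 39.0 points for shared, 7.23 to 24.9 for ARF4 only and 3.58 to 18.4 for ARF29 only events, and 0.20 to 0.63 in the log2 ratio. The high ends of all 4 came without ARF18; the log2 ratio did not pass without it (adjusted exact permutation p = 0.18). No analysis of paired libraries was possible because each ARF had 1 library. Unknown depth limits every statement that a list lacks an event. By Dixon's gap test no list stood apart within its clade in the share it held; the nearest was ARF18 at shared events, with a gap of 0.80 of the range against a critical 0.829, the list whose removal brought the 3 clade differences past the threshold.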
